A study of Homo sapiens with 30 samples.

Results

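The response to CYC065 was compared between SH-EP cells carrying S62A MYCN and SH-EP cells carrying WT MYCN, using 12 of the 30 RNA-Seq libraries of the series. For each gene, the change from DMSO to CYC065 in the WT line was subtracted from the same change in the S62A line, and the result is called the interaction. A positive interaction means that the gene stood relatively higher after CYC065 in S62A than the WT response would give, and a negative interaction means that it stood relatively lower. SH-EP is an established neuroblastoma (NB) cell line of mesenchymal type. All 4 groups were stable derivatives of SH-EP that expressed a retroviral MYCN transgene from an exogenous promoter, with the WT coding sequence in the WT_DMSO and WT_CYC065 groups and the S62A sequence in the S62A_DMSO and S62A_CYC065 groups. The cells received DMSO or 1 μM CYC065 for 6 hours, with 3 libraries in each group. Each allele was represented by 1 stable line, so the effect of the allele and any other difference between the lines cannot be told apart. The labels do not say that the 3 libraries of a group came from separate cultures, so the p-values measure the spread between libraries, which may be technical. That spread was estimated within the groups of all 30 libraries in 1 fit, including those of the other lines.

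CYC065 inhibits CDK2 and CDK9. CDK9 is the kinase of P-TEFb, which releases paused RNA polymerase II into productive elongation, and short-lived transcripts are among the first to be lost when it is blocked. CDK2 acts with cyclin E and cyclin A at the entry into and passage through S phase. MYCN is the MYC family factor that is amplified in high-risk NB, and binds E-box sequences together with MAX. Phosphorylation at serine 62 stabilizes the protein and primes the later phosphorylation of threonine 58, which leads to recognition by FBXW7 and degradation. In the reference genome these residues lie close together in exon 2 of the 3 exons of MYCN, at chr2:16082352-16082378 (GRCh37, plus strand, codons 56 to 64). They are shown because codon 62 is the codon at which the lines differ, with codons 58 and 62 in capitals.
MYCN codons 56 to 64: ctgcccACGcccccgctgTCGcccagc
The stretch is the reference sequence, with S62 encoded at chr2:16082370-16082372, and not the sequence of the transgenes.

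The level of the transgene target was examined first. MYCN (chr2:16080672-16087129) was at 13.7, 13.3 and 11.7 FPKM (fragments per kilobase of transcript, scaled to the size of the library) in the WT_DMSO libraries and at 14.4, 18.7 and 16.2 FPKM in the WT_CYC065 libraries. It was at 5.08, 6.59 and 5.51 FPKM in S62A_DMSO and at 6.89, 5.79 and 7.23 FPKM in S62A_CYC065. All S62A libraries were below all WT libraries in either treatment, so the S62A line carried less MYCN mRNA than the WT line. The log2 difference between the lines was -1.16 in DMSO (limma adjusted p = 1.89e-05) and -1.30 in CYC065 (limma adjusted p = 3.16e-06). Relative to the median gene of each library, MYCN rose with CYC065 in both lines, although the S62A libraries overlapped. The log2 change was 0.52 in WT (limma adjusted p = 0.00828) and 0.38 in S62A (limma adjusted p = 0.0461), and the interaction of -0.14 ± 0.24 (SE) was within error (limma adjusted p = 0.798). FPKM do not separate transgene from endogenous transcript. MYC, the paralog of MYCN, was at 0.995, 1.13 and 0.992 FPKM in WT_DMSO and 6.88, 7.47 and 7.77 FPKM in WT_CYC065. In S62A it was at 1.85, 1.01 and 1.93 FPKM in DMSO and 13.1, 12.6 and 12.1 FPKM in CYC065. MYC rose strongly in both lines, by 2.89 and 3.12 on the log2 scale, and its interaction of 0.23 ± 0.24 (SE) did not pass the test (limma adjusted p = 0.638).

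Mesenchymal markers were high in all 12 libraries: VIM was at 1498 to 2563 FPKM, CD44 at 195 to 307 FPKM and PRRX1 at 31.3 to 57.1 FPKM. Of the adrenergic markers, PHOX2A and HAND1 were at 0 in 12 of 12 libraries and DBH at 0 in 11 of 12, while HAND2 (23.1 to 70.0 FPKM) and GATA2 (12.7 to 19.8 FPKM) were present. Among markers of other cell types, CDH1, CDH5, HBB, HBA1 and SOX10 were at 0 in every library, EPCAM and PTPRC reached at most 0.320 and 0.204 FPKM, and KRT18 was abundant. In such bulk libraries, fewer cells of a kind and less RNA per cell cannot be told apart. The table held 26228 genes, of which 11575 averaged 1 FPKM or more over the 30 libraries and entered the test. Read counts were not in the table. Relative depth, read from the smallest steps between low values with the deepest library at 1, was 0.529 to 1 in WT_DMSO, 0.374 to 0.559 in WT_CYC065, 0.529 to 0.883 in S62A_DMSO and 0.335 to 0.467 in S62A_CYC065, so the CYC065 libraries were shallower than the DMSO libraries in S62A, while the ranges overlapped in WT. No libraries held identical values, and log2 values correlated at 0.926 to 0.949 within groups.

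CYC065 changed most genes in both lines, and the response differed between the lines for a limited set. In WT, 8501 of 11575 genes changed (5228, or 45.2%, rose and 3273, or 28.3%, fell, together 73.4% of those tested), and in S62A 8664 changed (5310, or 45.9%, rose and 3354, or 29%, fell, together 74.9%), both relative to the median gene of each library. These directions depend on the scaling: on the ERCC spike-ins, added by cell number, 89 genes rose and 10845 fell in WT, and 112 rose and 10439 fell in S62A. The interaction passed the test for 542 genes, 4.68% of those tested, of which 243 (2.1%) were higher and 299 (2.58%) lower in the S62A response (limma, Benjamini-Hochberg adjusted p under 0.05). The median interaction over all 11575 genes was 0.04 on the log2 scale. The differences were small. Among the genes that passed, the median size was 0.47 on the log2 scale, 152 reached 1.5-fold and 20 reached 2-fold. All 542 kept their sign when each of the 12 libraries was left out in turn, and 178 passed in all 12 of these fits (61 higher and 117 lower). With the model fitted to only the 12 libraries, 94 genes passed (56 higher and 38 lower), and of the 72 called genes named in the text 49 lost their call, against 31 without WT_DMSO library 0 and 32 and 28 with the trend on transcript length or gene span removed. The count itself moved from 215 without WT_DMSO library 0 to 897 without WT_DMSO library 2. No gene passed when the libraries were scaled on the ERCC spike-ins instead of the median gene (719 had an unadjusted p under 0.05), and the SD between libraries of a group was then 0.133 to 0.272 log2 units for the median gene alone.

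**Figure D1:**
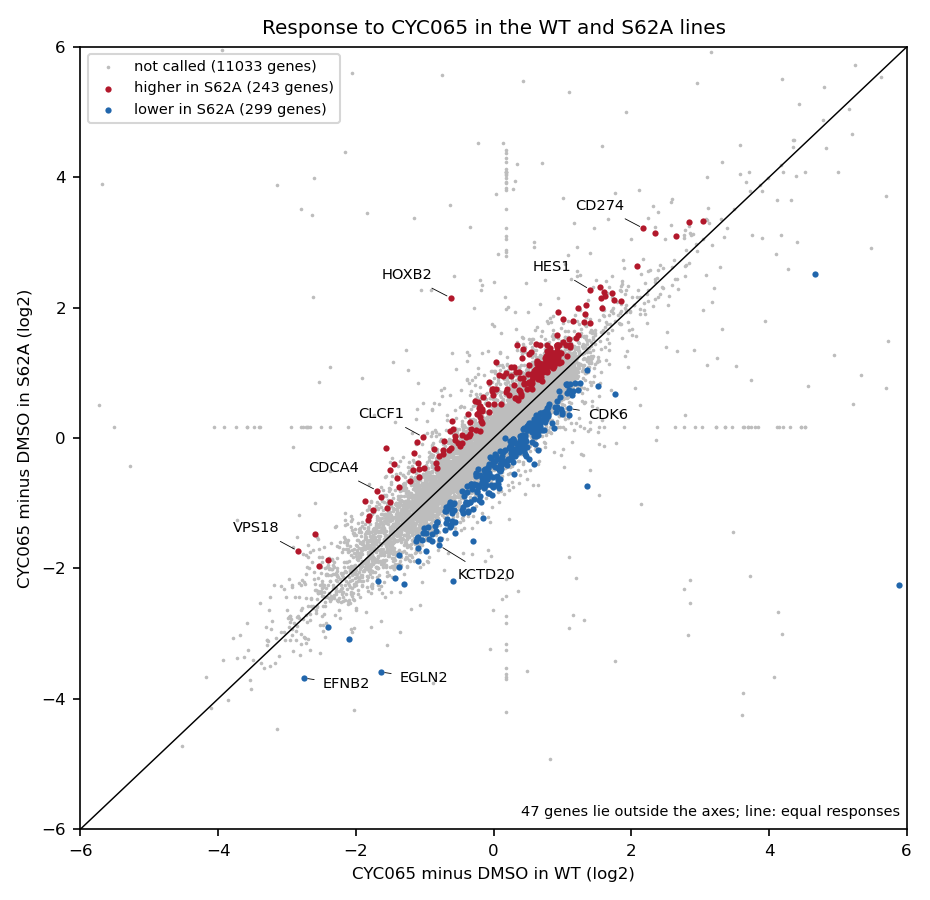
Each point is 1 of the 11575 tested genes, with its log2 change from DMSO to CYC065 in WT on the x axis and in S62A on the y axis (n = 3 libraries in each group), and the line marks equal responses. The 243 genes with a higher response in S62A (red) lie above the line and the 299 with a lower response (blue) below it, most of them close to it, and the rows of gray points near 0 are genes listed at 0 in the libraries of a line.

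The direction of the underlying responses was different for the higher and the lower genes. Here and below, rose and fell are relative to the median gene of each library. On the spike-ins that gene itself changed by -1.57 in WT and -1.35 in S62A (log2), so a gene said to rise may have fallen per cell. Of the 243 higher genes, 160 rose in both lines and rose further in S62A, 29 rose in S62A with no call in WT, 25 fell in both lines and fell less in S62A, 24 fell in WT with no call in S62A, and 5 fell in WT and rose in S62A. Of the 299 lower genes, 83 fell in both lines and fell further in S62A, 66 fell in S62A with no call in WT, 66 rose in WT with no call in S62A, 66 rose in both lines but less in S62A, and 18 rose in WT and fell in S62A. An interaction can come from the untreated or the treated libraries, and both kinds occurred. Of the higher genes, 107 did not pass between the lines in DMSO and were above WT in CYC065, while 89 were below WT in DMSO and did not pass in CYC065. Of the lower genes, 123 did not pass in DMSO and were below WT in CYC065, and 119 were above WT in DMSO and did not pass in CYC065. These line differences use the same libraries as the interaction. For orientation, 2798 genes (24.2%) passed between the lines in DMSO and 2904 (25.1%) in CYC065.

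The size of the gene moved with the result. The 243 higher genes had a median span of 10.7 kb, a median transcript of 2038 exonic bases and a median of 5 exons. The 299 lower genes had a median span of 103 kb, 7309 exonic bases and 20 exons. All tested genes lay between, with 31.7 kb, 3197 bases and 9 exons (lengths were found for 96.9% of tested, 99.6% of higher and 99.3% of lower genes). With the genes divided by span into 5 groups of equal size, the median interaction went from 0.21 in the shortest through 0.11, 0.05 and -0.04 to -0.12 in the longest. In the shortest group, 115 genes were called higher and 5 lower, and in the longest group 12 were called higher and 159 lower. The same gradient could be followed in single libraries, as the median log2 level of the longest group minus that of the shortest, each relative to the mean of all 30 libraries. It was 0.35, 0.33 and 0.29 in S62A_DMSO and -0.21, -0.13 and -0.15 in S62A_CYC065. In WT_CYC065 it was -0.07, -0.15 and -0.08. The WT_DMSO libraries were spread widely at 0.09, -0.13 and 0.16, the value of -0.13 belonging to WT_DMSO library 0, and all 3 were below all S62A_DMSO libraries. All 3 S62A_DMSO libraries were above all S62A_CYC065 libraries, while in WT the DMSO libraries overlapped those of CYC065 through library 0. As group means in DMSO the gradient was 0.32 in S62A and 0.04 in WT. In the other lines of the series it was 0.23 with T58A MYCN, 0.08 with T58A/S62A MYCN and 0.20 in parental SH-EP. The group means in CYC065 were -0.16 in S62A, -0.10 in WT, -0.12 in T58A, -0.26 in T58A/S62A and -0.01 in parental SH-EP. Without WT_DMSO library 0 the medians still ran from 0.15 to -0.08, with 215 calls. With the trend on transcript length removed from each library 247 genes passed (113 higher and 134 lower, 199 of them among the 542), and with the trend on gene span removed 292 passed (95 higher and 197 lower, 236 of them among the 542). In all, 146 genes (46 higher and 100 lower) passed in both of these fits and in the original fit, and 113 of them also passed in all 12 fits that left out a library. Both fits on length were added after seeing the data, and the part of length in any single result was not tested.

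**Figure D2:**
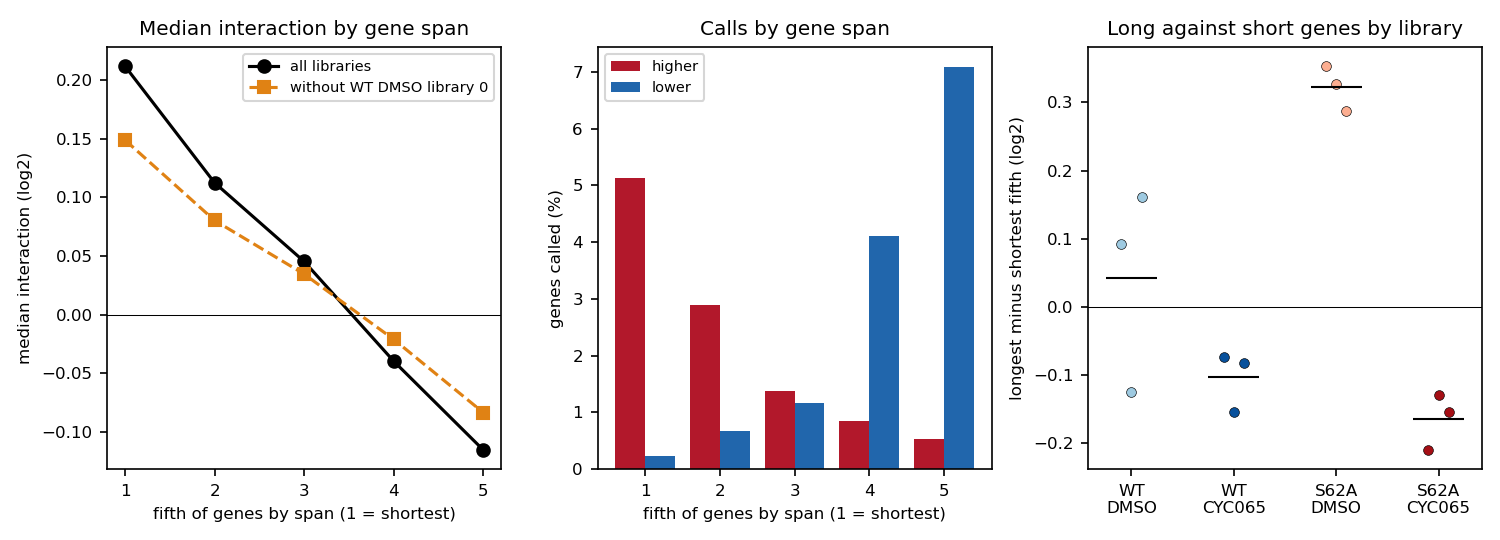
Left, median interaction (log2) in 5 equal groups of the tested genes by gene span, with all libraries (black) and without WT_DMSO library 0 (orange). Middle, percent of each group called higher (red) or lower (blue), and right, the median level of the longest minus the shortest group in each of the 12 libraries (points, with the mean of 3 as a line), where the S62A_DMSO libraries at 0.29 to 0.35 stand above all others.

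Genes with a higher response in S62A included cell cycle regulators of the SERTA family, a cytokine, an immune checkpoint ligand and a trafficking gene. CDCA4 (chr14:105475910-105487420), an E2F-regulated SERTA-domain gene, fell in both lines but less in S62A. It was at 51.1, 51.9 and 45.1 FPKM in WT_DMSO and 13.3, 12.6 and 14.4 FPKM in WT_CYC065, against 42.5, 38.7 and 39.9 FPKM in S62A_DMSO and 19.7, 19.6 and 22.2 FPKM in S62A_CYC065. The S62A libraries were below all WT libraries in DMSO and above them in CYC065, and the interaction was 0.88 ± 0.14 (SE, limma adjusted p = 0.00138). SERTAD1 (chr19:40927496-40931899), a CDK4-binding and E2F-coactivating protein, was at 15.6, 17.4 and 14.7 FPKM in WT_DMSO and 18.3, 20.4 and 17.9 FPKM in WT_CYC065. In S62A it went from 12.2, 14.3 and 11.6 FPKM to 30.04, 28.6 and 29.2 FPKM. Its S62A_CYC065 libraries were above every other library, with an interaction of 0.94 ± 0.17 (SE, limma adjusted p = 0.00371). SERTAD3, located next to SERTAD1 on chromosome 19, did not pass in WT (log2 change 0.03) and rose by 1.17 in S62A, with an interaction of 1.14 ± 0.29 (SE, limma adjusted p = 0.0275) that passed in 7 of 12 fits without a library and with neither length trend removed (limma adjusted p = 0.0711 and 0.088). The other members of the family, looked up after these values were seen, did not pass: SERTAD2 had an interaction of 0.12 (limma adjusted p = 0.554) and SERTAD4 of -0.12 (limma adjusted p = 0.793).

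CD274 (chr9:5450503-5470566), which encodes the checkpoint ligand PD-L1, was at 1.83, 1.59 and 1.85 FPKM in WT_DMSO and 7.42, 6.98 and 7.56 FPKM in WT_CYC065. In S62A it was at 1.27, 0.939 and 1.17 FPKM in DMSO and 10.9, 9.93 and 9.08 FPKM in CYC065. It rose 4.52-fold in WT and 9.29-fold in S62A, from a lower level to a higher one, with no overlap between the lines in either treatment (interaction 1.04 ± 0.19 SE, limma adjusted p = 0.00316). CLCF1 (chr11:67131639-67141648), an IL-6 family cytokine, fell from 8.56, 10.7 and 8.32 FPKM to 4.65, 3.46 and 3.73 FPKM in WT. The S62A libraries were at 10.6, 10.9 and 10.9 FPKM in DMSO and 8.76, 9.26 and 11.3 FPKM in CYC065. The lines overlapped in DMSO and separated fully in CYC065 (interaction 1.04 ± 0.23 SE, limma adjusted p = 0.0113). VPS18 (chr15:41186648-41196173), a core subunit of the HOPS and CORVET tethering complexes of endosomes and lysosomes, was at 10.9, 11.8 and 9.69 FPKM in WT_DMSO and 1.05, 1.72 and 1.05 FPKM in WT_CYC065. The S62A line had 9.02, 10.5 and 9.19 FPKM and then 3.0, 2.50 and 2.04 FPKM. It fell 7.16-fold in WT and 3.33-fold in S62A (interaction 1.11 ± 0.22 SE, limma adjusted p = 0.00688). The histone gene HIST1H2BD rose in both lines and by more in S62A, where the DMSO libraries began at 8.03 to 9.44 FPKM against 17.2 to 20.8 FPKM in WT_DMSO (interaction 1.01 ± 0.20 SE, limma adjusted p = 0.00572). The 5 genes CDCA4, SERTAD1, CD274, CLCF1 and VPS18, and HIST1H2BD, passed in all 12 fits without a library and with either length trend removed. Those fits kept the libraries of the other lines.

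The remaining genes named among the 15 largest positive interactions were less stable. HOXB2, a homeobox gene of anterior hindbrain patterning, had the largest value of the 15, 2.77 ± 0.66 (SE, limma adjusted p = 0.0188). It was at 5.64, 6.79 and 4.61 FPKM in WT_DMSO and 2.41, 3.72 and 3.58 FPKM in WT_CYC065, but at only 0.759, 0.0975 and 1.15 FPKM in S62A_DMSO and 2.83, 2.31 and 1.76 FPKM in S62A_CYC065. The 0.0975 FPKM of 1 S62A_DMSO library weighed on this value, which ranged from 1.98 to 3.30 when libraries were left out and lost its call without WT_DMSO library 0 (limma adjusted p = 0.058). HOXA2, a related homeobox gene, fell by 1.15 in WT and did not pass in S62A at -0.23 (interaction 0.92, limma adjusted p = 0.0233). The mitochondrial carrier SLC25A29 had an interaction of 1.11 (limma adjusted p = 0.0224), the epithelial keratin KRT19 of 1.09 (limma adjusted p = 0.0283), the zinc finger gene ZNF576 of 1.05 (limma adjusted p = 0.0392), C16orf93 of 0.93 (limma adjusted p = 0.0353), CCDC71 of 0.91 (limma adjusted p = 0.0351) and the sulfurtransferase gene TST of 0.89 (limma adjusted p = 0.0404). These 6 genes and HOXA2 passed in 3 to 8 of the 12 fits without a library. KRT18, another keratin, was at 251, 302 and 234 FPKM in WT_DMSO and 388, 416 and 394 FPKM in WT_CYC065, and at 379, 414 and 424 FPKM and then 901, 840 and 920 FPKM in S62A. Its interaction of 0.51 ± 0.09 (SE, limma adjusted p = 0.00391) passed in all 12 fits without a library. With only the 12 libraries of the comparison, neither KRT18 nor KRT19 passed. The defining epithelial markers EPCAM and CDH1 were at or near 0 in all 12 libraries. Only 4 of the 18 listed markers of other cell types were expressed highly enough to be tested, and the other 2, CD68 and S100B, did not pass. Summed over the 18 markers, the level was 245 to 314 FPKM in WT_DMSO, 404 to 433 in WT_CYC065, 390 to 435 in S62A_DMSO and 863 to 944 in S62A_CYC065, nearly all of it KRT18. Without the keratins KRT18 and KRT19 it was 12.8 to 17.6 FPKM in WT_CYC065 and 14.8 to 16.4 FPKM in S62A_CYC065, which overlap.

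Among the genes with the largest negative interactions, most fell further in S62A or passed as falling only there. KCTD20 (chr6:36410544-36458920), a BTB-domain protein, gave the smallest p of the named genes. It was at 16.5, 15.5 and 16.6 FPKM in WT_DMSO and at 15.8, 17.6 and 15.9 FPKM in S62A_DMSO, overlapping ranges. CYC065 brought it to 8.12, 8.41 and 8.19 FPKM in WT and to 4.41, 5.002 and 4.37 FPKM in S62A, an interaction of -0.86 ± 0.10 (SE, limma adjusted p = 6.67e-05). EFNB2 (chr13:107142093-107188010), the transmembrane ligand of EPHB receptors, lost most of its transcript in both lines. It went from 12.5, 12.2 and 10.9 FPKM to 1.55, 1.33 and 1.51 FPKM in WT, and from 12.6, 14.2 and 13.2 FPKM to 0.945, 0.720 and 0.843 FPKM in S62A, which is 6.76-fold against 12.8-fold (interaction -0.92 ± 0.16 SE, limma adjusted p = 0.0022). VANGL1, a planar cell polarity protein, fell 4.28-fold in WT and 8.45-fold in S62A (interaction -0.98, limma adjusted p = 0.0139), and the diacylglycerol kinase DGKD fell 2.14-fold and 3.71-fold (interaction -0.79, limma adjusted p = 0.00256).

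NREP (chr5:110998318-111333161), a neuronal regeneration protein gene, did not pass in WT, with 20.8, 18.7 and 20.6 FPKM in DMSO and 18.3, 17.9 and 16.1 FPKM in CYC065 (log2 change -0.02). In S62A it fell from 19.05, 18.6 and 15.5 FPKM to 8.05, 9.00 and 8.65 FPKM (interaction -0.85 ± 0.14 SE, limma adjusted p = 0.0022). C9orf41, which encodes carnosine N-methyltransferase, did not pass in WT either, at 9.33 to 11.4 FPKM in both WT groups and 13.3 to 13.6 FPKM falling to 6.79 to 7.35 FPKM in S62A (interaction -0.85, limma adjusted p = 0.00244). DENND4B, a RAB exchange factor, likewise fell in S62A with no call in WT (interaction -0.78, limma adjusted p = 0.00831). ZBTB41, a zinc finger gene (interaction -0.78, limma adjusted p = 0.00647), fell in both lines and further in S62A. GINS1 (chr20:25371644-25433336), a subunit of the replicative helicase, was at 20.6, 18.2 and 19.3 FPKM in WT_DMSO and 7.88, 9.16 and 8.74 FPKM in WT_CYC065. In S62A it was at 17.7, 18.6 and 17.6 FPKM and then at 3.91, 5.23 and 5.22 FPKM, below all WT_CYC065 libraries (interaction -0.74 ± 0.15 SE, limma adjusted p = 0.00777). KCTD20, EFNB2, VANGL1, DGKD, NREP, C9orf41, DENND4B, ZBTB41 and GINS1 passed in all 12 fits without a library and with either length trend removed. Those fits kept the libraries of the other lines. With the model fitted to only the 12 libraries of the comparison, GINS1 did not pass.

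For a further group of lower genes the lines differed before treatment. DMXL2, a synaptic vesicle and V-ATPase regulator, was at 3.01, 2.14 and 3.67 FPKM in WT_DMSO and 5.13, 5.06 and 5.29 FPKM in S62A_DMSO, and the lines overlapped at 3.20 to 3.93 FPKM in CYC065 (interaction -0.84, limma adjusted p = 0.0104). ZBED6 was also above WT in DMSO and overlapped in CYC065 (interaction -0.80, limma adjusted p = 0.0113), although it lies inside ZC3H11A and the genes may share fragments. KIAA0754 (interaction -0.98, limma adjusted p = 0.0142) is placed within MACF1 by the annotation and carries the same uncertainty. A pair of lower genes were less stable. EGLN2, a prolyl hydroxylase of the HIF pathway that also overlaps a read-through transcript, showed the largest negative value of the genes named, -1.95 ± 0.57 (SE, limma adjusted p = 0.0494), at 6.43, 7.69 and 7.51 FPKM in WT_CYC065 and 0.502, 4.45 and 1.29 FPKM in S62A_CYC065. It passed in only 1 of 12 fits without a library, with values from -2.72 to -1.27. The protocadherin PCDH18 (interaction -0.95, limma adjusted p = 0.0414) passed in 3 of 12.

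**Figure D3:**
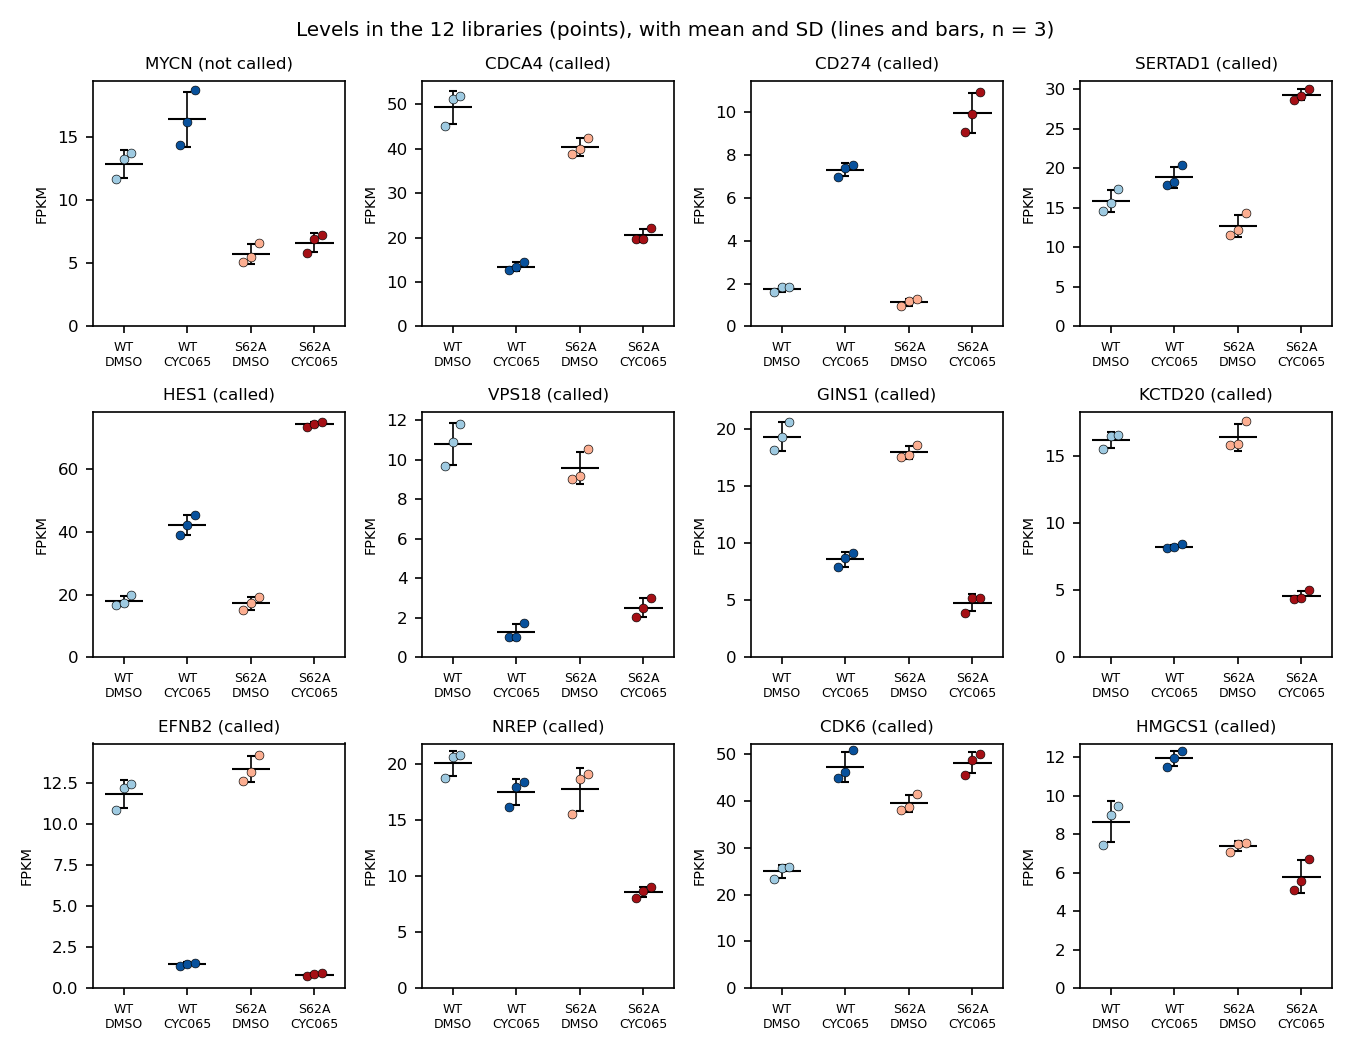
FPKM of MYCN and of 11 genes that passed the interaction test, in each of the 12 libraries (points), with the mean and SD of the 3 libraries of a group (lines and bars) and axes from 0. MYCN is lower in both S62A groups, the S62A_CYC065 libraries of SERTAD1 and HES1 lie above and those of GINS1, KCTD20 and NREP below all other libraries, and for CDK6 the lines differ in DMSO and not in CYC065.

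Among the targets of the compound themselves, CDK9 and CDK2 did not pass the interaction test. CDK9 was at 21.2 to 23.5 FPKM in WT_DMSO, 16.5 to 18.2 in WT_CYC065, 18.1 to 18.3 in S62A_DMSO and 17.0 to 18.1 in S62A_CYC065 (interaction 0.27 ± 0.13 SE, limma adjusted p = 0.222). CDK2 rose relative to the median gene in both lines, by 0.48 in WT and 0.45 in S62A on the log2 scale, while the median gene itself changed by -1.57 and -1.35 when scaled on the spike-ins (interaction -0.04 ± 0.10 SE, limma adjusted p = 0.886). MCL1, the short-lived antiapoptotic BCL2 family member, rose relative to the median gene by 0.50 in WT and 0.69 in S62A (interaction 0.19 ± 0.08 SE, limma adjusted p = 0.178). Of 26 tested genes of P-TEFb and elongation control, 3 were lower and 1 higher (15.4% against 4.68% of all genes), and the list median was 0.01. AFF4 (chr5:132211087-132299326), the scaffold of the super elongation complex, was at 13.3, 10.5 and 13.6 FPKM in WT_DMSO and 14.9, 14.99 and 14.8 FPKM in WT_CYC065. In S62A it was at 16.7, 17.2 and 15.01 FPKM in DMSO and 13.1, 13.6 and 14.1 FPKM in CYC065 (interaction -0.53 ± 0.11 SE, limma adjusted p = 0.0064). ELL2, another elongation factor of that complex, did not pass in WT at 0.06 and fell by 0.45 in S62A (interaction -0.51 ± 0.09 SE, limma adjusted p = 0.00316). CDK12, the elongation kinase of DNA repair genes, fell by 1.68 in WT and by 2.2 in S62A (interaction -0.52 ± 0.11 SE, limma adjusted p = 0.00952), a call lost with the trend on transcript length removed (limma adjusted p = 0.074). NELFA, a subunit of the pausing factor NELF, was the higher member, falling by 1.75 in WT and by 1.11 in S62A (interaction 0.64, limma adjusted p = 0.0186). Its call was lost without WT_DMSO library 0 (limma adjusted p = 0.0586) and with the trend on transcript length removed (limma adjusted p = 0.0594).

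Of 24 tested genes of CDK2 and G1/S control, 2 were lower and 1 was higher (12.5% against 4.68% of all genes, list median -0.00). CDK6 (chr7:92234235-92465887), the D-cyclin kinase, was at 25.6, 23.3 and 25.9 FPKM in WT_DMSO and 44.8, 50.9 and 46.1 FPKM in WT_CYC065. In S62A it was at 41.5, 38.0 and 38.8 FPKM in DMSO and 45.6, 48.8 and 49.9 FPKM in CYC065. The lines were separate in DMSO and overlapped in CYC065, so the smaller rise in S62A started from a higher level (interaction -0.64 ± 0.10 SE, limma adjusted p = 0.00115). CCNA2, the cyclin A gene, fell by 0.95 in WT and by 1.36 in S62A (interaction -0.41, limma adjusted p = 0.0186), and CCND1, cyclin D1, rose by 0.36 and 0.58 (interaction 0.22, limma adjusted p = 0.0404). Without WT_DMSO library 0 neither passed (limma adjusted p = 0.0676 and 0.108), and CCND1 did not pass with the trend on transcript length or gene span removed (limma adjusted p = 0.0664 and 0.443). Of 43 replication genes, GINS1 was lower and 1 gene was higher (4.65% called, near the 4.68% of all genes). Of 35 mitotic genes, 2 were lower and 1 was higher (8.57% called).

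Immediate early and AP-1 genes that passed were all higher. Of 33 tested, 9 were higher and none was lower (27.3% against 4.68% of all genes), 28 had a positive interaction, and the list median of 0.28 compared with 0.04 over all genes. These are genes transcribed within minutes of growth factor or stress signals, many of which encode feedback inhibitors of ERK signaling. SPRY2 (chr13:80910111-80915261), the Sprouty inhibitor of receptor tyrosine kinase signaling, was at 20.4, 18.7 and 18.9 FPKM in WT_DMSO and 42.8, 41.5 and 36.1 FPKM in WT_CYC065. In S62A it rose from 10.6, 8.44 and 8.54 FPKM to 30.9, 31.5 and 35.6 FPKM. It was below WT in both treatments, with a smaller gap after CYC065 (interaction 0.77 ± 0.14 SE, limma adjusted p = 0.00316). The ERK phosphatase genes DUSP5 (interaction 0.75, limma adjusted p = 0.0104), DUSP4 (interaction 0.66, limma adjusted p = 0.0207) and DUSP1 (interaction 0.48, limma adjusted p = 0.0275) were higher. DUSP5 started lower in S62A, at 9.97 to 11.3 FPKM against 15.2 to 18.1 FPKM in WT_DMSO, and ended in the same range. DUSP4 started higher, at 11.1 to 12.7 FPKM against 3.66 to 4.28 FPKM. The orphan nuclear receptor NR4A1 did not pass in WT at 0.17 and rose by 0.99 in S62A (interaction 0.82, limma adjusted p = 0.023). IER5 rose by 2.64 and 3.09 (interaction 0.45, limma adjusted p = 0.00377), and the zinc finger factors KLF6 and KLF10 had interactions of 0.25 and 0.37 (limma adjusted p = 0.0389 and 0.0454). The antiproliferative gene BTG1 fell in WT by 0.52 and did not pass in S62A (interaction 0.45, limma adjusted p = 0.0238). Of the 9, 3 passed in all 12 fits without a library (SPRY2, DUSP5 and IER5). Without WT_DMSO library 0 the count was 4 higher (12.1%, against 1.86% of all genes). It was 6 with the trend on transcript length removed (18.2% against 2.2%) and 3 with the trend on gene span removed (9.09% against 2.6%). The list medians in these fits were 0.26, 0.24 and 0.12, against 0.03, 0.002 and 0.005 over all genes. With only the 12 libraries of the comparison, 3 were higher (9.09% against 0.812%).

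Members of the TGF-beta and BMP pathway list that passed were 4 of 27, all higher (14.8% against 4.68% of all genes, list median 0.02). HES1 (chr3:193853937-193856521), a transcriptional repressor best known as a Notch target, was at 16.7, 19.8 and 17.4 FPKM in WT_DMSO and 42.2, 39.0 and 45.5 FPKM in WT_CYC065. In S62A it went from 19.3, 17.5 and 15.1 FPKM to 74.4, 75.2 and 73.6 FPKM, above all other libraries (interaction 0.87 ± 0.14 SE, limma adjusted p = 0.00167). The inhibitor of differentiation genes ID1 and ID2 are direct BMP targets. ID1 fell by 0.20 in WT and rose by 0.33 in S62A (interaction 0.53, limma adjusted p = 0.0105), and ID2 fell by 0.26 in WT and did not pass at 0.12 in S62A (interaction 0.38, limma adjusted p = 0.0298). The call of ID2 was lost without WT_DMSO library 0 (limma adjusted p = 0.104) and with the trend on transcript length removed (limma adjusted p = 0.403), and neither gene passed with the trend on gene span removed (limma adjusted p = 0.143 for ID1 and 0.448 for ID2).

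The YAP and TEAD target list held 3 higher and 2 lower genes of 24 tested (20.8% called against 4.68% of all genes, list median -0.09). AMOTL2, an angiomotin that restrains YAP, was at 39.5, 38.2 and 34.8 FPKM in WT_DMSO, 37.5, 37.3 and 38.0 in WT_CYC065, 37.4, 37.5 and 35.6 in S62A_DMSO and 52.3, 52.5 and 55.3 in S62A_CYC065. In FPKM the S62A_CYC065 libraries alone stood apart. Relative to the median gene, AMOTL2 rose by 0.18 in WT (limma adjusted p = 0.00781) and by 0.70 in S62A (interaction 0.52 ± 0.08 SE, limma adjusted p = 0.00167). The TEAD targets ANKRD1 (interaction 0.51, limma adjusted p = 0.0107) and CYR61 (interaction 0.29, limma adjusted p = 0.0366) rose in both lines and by more in S62A. The kinase gene LATS2, which acts upstream to inactivate YAP, fell by 0.56 in WT and by 1.28 in S62A (interaction -0.72 ± 0.16 SE, limma adjusted p = 0.0113). WWTR1, which encodes the YAP paralog TAZ, rose by 0.26 in WT and did not pass in S62A at -0.06 (interaction -0.32, limma adjusted p = 0.0259). ANKRD1, CYR61 and WWTR1 did not pass with the trend on transcript length removed (limma adjusted p = 0.147, 0.216 and 0.0628) or with that on gene span removed (limma adjusted p = 0.151, 0.742 and 0.215). Without WT_DMSO library 0, CYR61 and WWTR1 did not pass either (limma adjusted p = 0.117 and 0.0678). With only the 12 libraries of the comparison, 2 genes of the list were higher and none was lower, so LATS2 lost its call.

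Mesenchymal regulators and matrix genes moved in both directions, with 5 higher and 4 lower of 51 tested (17.6% called against 4.68% of all genes, list median 0.03). The transcription factor gene SNAI2 was at 11.6, 11.9 and 12.7 FPKM in WT_DMSO and 7.11, 8.23 and 6.97 FPKM in S62A_DMSO, and CYC065 brought the lines to overlapping levels of 12.9 to 15.1 and 15.1 to 15.8 FPKM (interaction 0.81 ± 0.17 SE, limma adjusted p = 0.00929). The actin-binding gene TAGLN was far lower in S62A, at 4.87 to 7.39 FPKM against 21.3 to 25.4 FPKM in WT_DMSO, and rose by 0.37 in WT and 1.02 in S62A (interaction 0.65, limma adjusted p = 0.0389). TAGLN did not pass without WT_DMSO library 0 (limma adjusted p = 0.118) or with either length trend removed (limma adjusted p = 0.0668 and 0.114), and SNAI2 did not pass with the trend on gene span removed (limma adjusted p = 0.0549). The collagen genes COL3A1 and COL12A1 rose in both lines and by less in S62A. COL3A1 was at 205, 199 and 207 FPKM in WT_DMSO and 341, 368 and 342 FPKM in WT_CYC065, and at 163, 182 and 166 FPKM and then 231, 230 and 240 FPKM in S62A (interaction -0.33 ± 0.07 SE, limma adjusted p = 0.00591). COL12A1 had an interaction of -0.44 (limma adjusted p = 0.00777), a call lost with the trend on transcript length removed (limma adjusted p = 0.144). With only the 12 libraries of the comparison, 2 genes of the list were higher and none was lower, so neither collagen gene passed. None of the 12 tested adrenergic genes passed (list median 0.11).

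The few genes that passed in the receptor tyrosine kinase list and in the list of NF-kB targets and cytokines were lower. Of 19 receptor tyrosine kinase genes tested, DDR2, a collagen receptor, was lower, rising by 0.60 in WT with no call in S62A at -0.09 (interaction -0.69, limma adjusted p = 0.0142). MET, the hepatocyte growth factor receptor, rose by 0.55 in WT and 0.20 in S62A (interaction -0.35, limma adjusted p = 0.014). No receptor gene was higher, and 5 of 19 had a positive value (10.5% called against 4.68% of all genes, list median -0.15). DDR2 and MET passed in all 12 fits without a library and with either length trend removed. Neither passed with only the 12 libraries of the comparison. The median gene span of this list was 69.0 kb, against 31.7 kb for all tested genes. Of 27 NF-kB targets and cytokines, 2 were lower and none was higher (7.41% called against 4.68% of all genes, list median -0.22). BIRC3, an inhibitor of apoptosis and NF-kB target, was at 0.711, 0.585 and 0.628 FPKM in WT_DMSO and 2.31, 1.81 and 2.30 FPKM in WT_CYC065, and at 0.511, 0.690 and 0.415 FPKM and then 0.914, 0.737 and 0.731 FPKM in S62A (interaction -1.10 ± 0.29 SE, limma adjusted p = 0.0349). NFKB1, the p105 subunit gene, rose by 1.35 in WT and 1.04 in S62A (interaction -0.31, limma adjusted p = 0.0452). Neither call held without WT_DMSO library 0 (limma adjusted p = 0.0905 and 0.126).

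Of 29 tested genes of cholesterol and fatty acid synthesis, 4 were lower and none was higher (13.8% against 4.68% of all genes, list median -0.08). HMGCS1 (chr5:43287572-43313614), which makes the substrate of HMG-CoA reductase, was at 8.98, 7.47 and 9.49 FPKM in WT_DMSO and 11.5, 11.96 and 12.3 FPKM in WT_CYC065. The S62A libraries had 7.51, 7.06 and 7.53 FPKM and then 6.73, 5.57 and 5.09 FPKM. It rose in WT and did not pass in S62A (interaction -0.83 ± 0.17 SE, limma adjusted p = 0.00713). The squalene epoxidase gene SQLE fell by 0.98 in WT and by 1.46 in S62A (interaction -0.48, limma adjusted p = 0.0216). INSIG1, the sterol sensor partner of SCAP, rose by 0.77 and 0.32 (interaction -0.45, limma adjusted p = 0.0271), and ACACA, acetyl-CoA carboxylase, by 0.66 and 0.24 (interaction -0.42, limma adjusted p = 0.00777). With either length trend removed, 3 were lower (10.3%, against 2.2% of all genes for transcript length and 2.6% for gene span), and ACACA lost its call. Without WT_DMSO library 0, 2 were lower (6.9% against 1.86%), and SQLE and INSIG1 did not pass (limma adjusted p = 0.0741 and 0.0883). With only the 12 libraries of the comparison, 1 was lower (3.45% against 0.812%). In the ATF4 and unfolded protein response list, 3 of 26 were higher and 1 was lower (15.4% called, list median 0.20). ATF4 itself fell by 0.48 in WT and did not pass at -0.12 in S62A (interaction 0.36, limma adjusted p = 0.033), the glutathione-degrading CHAC1 fell by 1.12 in WT and did not pass at -0.06 in S62A (interaction 1.06, limma adjusted p = 0.0408), and the mTORC1 inhibitor gene DDIT4 had an interaction of 0.41 (limma adjusted p = 0.0478). The cystine transporter gene SLC7A11 was lower, rising by 0.53 and 0.15 (interaction -0.38, limma adjusted p = 0.0231), a call lost without WT_DMSO library 0 (limma adjusted p = 0.0766) and with the trend on transcript length removed (limma adjusted p = 0.162). None of these higher calls held with either length trend removed or without WT_DMSO library 0.

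Among housekeeping groups, the genes that passed were higher. Of 83 cytosolic ribosomal protein genes, 13 were higher (15.7%, interactions from 0.25 to 0.55) and none was lower, and 80 had a positive interaction, with a list median of 0.27. Nuclear-encoded respiratory chain genes had 7 of 76 higher and none lower (9.21%, median 0.23), proteasome subunits 5 of 37 higher and none lower (13.5%, median 0.17), and mitochondrial ribosomal proteins 4 of 77 higher and none lower (5.19%, near the 4.68% of all genes, median 0.16). Of 18 snoRNA host genes, 4 were higher and none lower (22.2%, median 0.35), including GAS5, which fell by 0.73 in WT and by 0.24 in S62A (interaction 0.49, limma adjusted p = 0.0186), and EPB41L4A-AS1 (interaction 0.60, limma adjusted p = 0.0491). Neither passed without WT_DMSO library 0 or with either length trend removed. The median gene span in these groups was 5.55 kb for the cytosolic ribosomal proteins, 12.6 kb for the respiratory chain, 16.02 kb for the proteasome, 12.4 kb for the mitochondrial ribosomal proteins and 6.72 kb for the snoRNA host genes, against 31.7 kb for all tested genes. With the trend on transcript length removed, the median of the cytosolic ribosomal proteins was 0.09 with no call, that of the respiratory chain genes 0.08 with 1 call, that of the proteasome 0.04 with no call and that of the snoRNA host genes 0.21 with no call. The mitochondrial ribosomal proteins then had a median of -0.00, with 38 of 77 positive, 1 called higher and 3 called lower. Without WT_DMSO library 0, 5 cytosolic ribosomal protein genes (6.02%, against 1.86% of all genes) and 1 mitochondrial ribosomal protein gene were called higher. No respiratory chain, proteasome or snoRNA host gene was then called. With only the 12 libraries, 2 mitochondrial ribosomal protein genes were called, and 1 gene in each of the other groups.

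Several groups showed few or no calls, beside the 4.68% called of all tested genes. A list without calls is not shown to respond alike in both lines. None of 19 genes of the MYC and MAX network passed (list median 0.02). Of 38 MYC-associated nucleolar and growth genes 1 was lower and none was higher (2.63% called, median 0.07). None of 11 BCL2 family genes (median 0.19), 21 heat shock genes (median 0.07), 21 SR protein and CLK genes (median 0.02) or 11 imprinted and oncofetal genes (median -0.03) passed. Of 24 p53 targets 1 was lower (4.17% called, median -0.03). Of 29 DNA damage and homologous recombination genes 1 was lower, CDK12 (3.45% called, median -0.09). Of 21 NRF2 targets 1 was lower (4.76% called, median 0.02), and of 28 interferon-stimulated genes 1 was higher (3.57% called, median 0.08). Among 347 zinc finger genes named ZNF, 7 were higher and 1 was lower (2.31% called, median 0.15), and among 165 antisense RNAs 1 was higher and 1 lower (1.21% called).

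**Figure D4:**
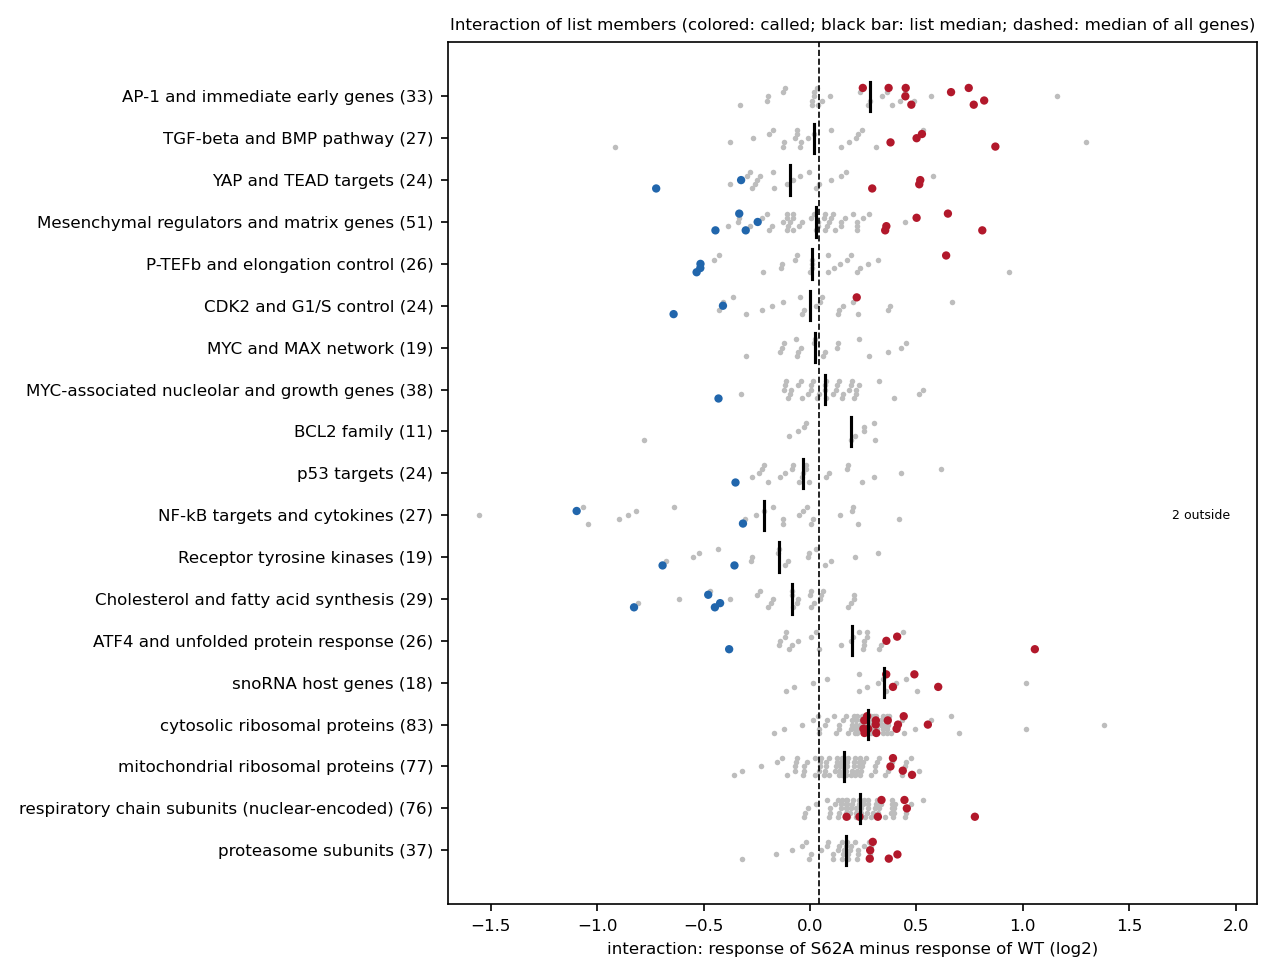
Interaction (log2) of every tested member (points) of 19 of the gene lists, with the number tested in parentheses, called genes in red (higher) or blue (lower), the list median as a black bar and the median of all genes, 0.04, as a dashed line, and 2 NF-kB members outside the axis. The immediate early genes and the ribosomal, respiratory chain and proteasome groups lie to the right of the dashed line, while the receptor tyrosine kinase, NF-kB and cholesterol groups have their calls on the left.

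Because MYCN binds the E-box CACGTG with MAX, promoter windows from 250 bases before to 50 bases after the annotated transcript start (GRCh37) were searched for this motif, which reads the same on both strands. It was in 10.6% of the windows of all tested genes (1185 of 11217), in 8.26% of those of the higher genes (20 of 242) and in 13.1% of those of the lower genes (39 of 297). Gene span made little difference to the share, which was 10.7% in the shortest and 9.99% in the longest of the 5 groups by span. The AP-1 motif TGACTCA was in 2.67% of all windows, 1.24% of the higher and 1.68% of the lower genes, and the TATA motif TATAAA in 5.48%, 9.09% and 6.06%. These shares are descriptions, and a match is not a bound site. Of the matches among the named genes, 5 are shown as examples, with the E-box in capitals and each sequence read along the strand of its gene.
AFF4, chr5:132299363-132299392, minus strand: gcgcagaggcatCACGTGacgccccgcacc
LATS2, chr13:21635713-21635742, minus strand: gggaggcggggtCACGTGacgcccgtggaa
CDK6, chr7:92465840-92465869, minus strand: cgaggccgcggaCACGTGcggagagccgac
DUSP1, chr5:172198289-172198318, minus strand: tcaccgccccgtCACGTGatcaccattcaa
ATF4, chr22:39916470-39916499, plus strand: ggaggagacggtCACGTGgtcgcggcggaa
AFF4, LATS2 and CDK6 were lower in the S62A response, and DUSP1 and ATF4 were higher.

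The responses of the named genes were also set beside those of the other lines of the series. Against the mean response of the T58A and T58A/S62A lines, which shares the S62A libraries with the interaction, 941 genes passed for S62A (8.13%, with 472, or 4.08%, higher and 469, or 4.05%, lower). CDCA4 differed by 0.77 (limma adjusted p = 0.000212), CD274 by 1.08 (limma adjusted p = 0.000168), CLCF1 by 1.00 (limma adjusted p = 0.00233), VPS18 by 0.90 (limma adjusted p = 0.00462) and SERTAD3 by 1.23 (limma adjusted p = 0.0033). EFNB2 differed by -1.03 (limma adjusted p = 3.59e-05), DGKD by -1.02 (limma adjusted p = 8.5e-06), GINS1 by -0.93 (limma adjusted p = 0.000103) and KCTD20 by -0.72 (limma adjusted p = 7.7e-06). All 9 genes had been chosen on the same S62A libraries, so these values stand beside those against WT and are not independent of them. The mean also joins lines that can differ from each other. KCTD20 changed by -1.65 in S62A and -1.23 in T58A/S62A, against -0.63 in T58A, -0.79 in WT and -0.57 in parental SH-EP. HES1, which differed by 0.55 (limma adjusted p = 0.00669), changed by 2.28 in S62A and 2.08 in T58A/S62A, against 1.38 in T58A and 1.40 in WT. CD274 rose by 3.22 on the log2 scale in S62A, against 2.22 in parental SH-EP, 2.18 in WT, 1.96 in T58A and 2.31 in T58A/S62A. Other named genes did not separate S62A from the mutants by the test: SERTAD1 differed by 0.29 (limma adjusted p = 0.264), as T58A at 0.98 and T58A/S62A at 1.18 lay near S62A at 1.37. NREP differed by -0.37 (limma adjusted p = 0.0648), with T58A/S62A at -0.86 next to S62A at -0.87, and ZBED6 by 0.04 (limma adjusted p = 0.922).

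**Figure D5:**
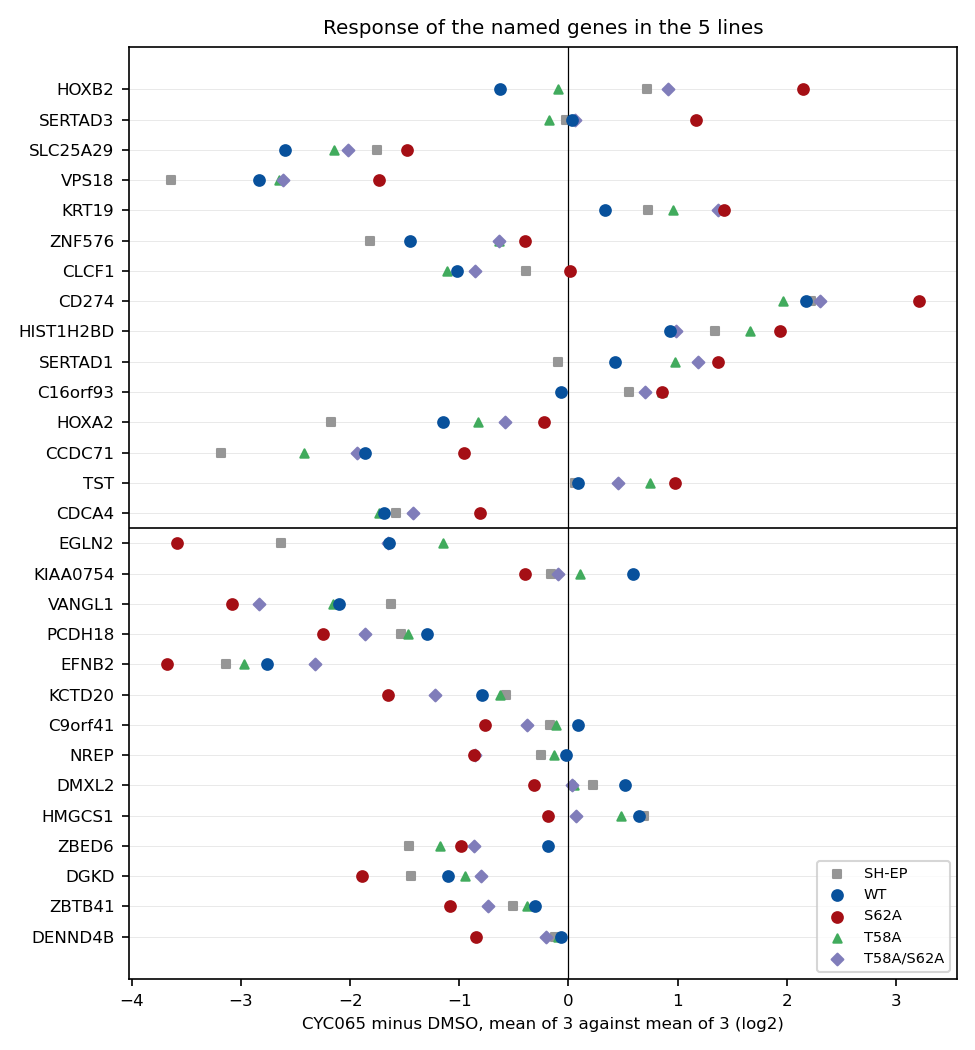
Log2 change from DMSO to CYC065 (mean of 3 against mean of 3 libraries) of the named genes in parental SH-EP, WT, S62A, T58A and T58A/S62A cells. The S62A points (red circles) of CD274 at 3.22 and SERTAD3 at 1.17 lie apart from all other lines, while the T58A/S62A point lies beside that of S62A for SERTAD1 and behind it for NREP.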

How the data were processed

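RNA was selected for poly(A), made into stranded libraries with ERCC spike-ins added by cell number, and aligned by the authors to hg19 with HISAT. The deposited values are FPKM per gene, computed by the authors with Cufflinks. All 30 columns name their group, and none is of another sample. The members of the comparison, the gene lists and the tests were chosen with earlier results of these data known. FPKM were taken as log2(FPKM + 0.1), each library was centered on its median over the genes averaging 1 FPKM or more, and 1 limma model (version 3.58.1, R 4.3.3, trended variance, 10 groups, 20 residual degrees of freedom) was fitted to 11575 genes, with Benjamini-Hochberg adjustment and a threshold of 0.05. Log2 changes on this scale understate changes of low genes. Named genes were MYCN, CDK9, CDK2 and MCL1, the 15 largest interactions in each direction among called genes with stable sign and a group mean of at least 5 FPKM (short RNAs left out), and the 3 largest members of each of 31 lists. Other list members were named after their values were seen, and a few genes that the rule names are not reported here. Positions and lengths are those of GENCODE lifted to GRCh37. Alternatives were other pseudocounts (1 and 0.01), filters (none and 5 FPKM), no centering, spike-in scaling, the 12 libraries alone, robust variance, a 1.5-fold minimum, leaving out each library, removal of length trends and a replicate block. The fit was tested on simulated data.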

Additional observations from a re-analysis of the deposited data

Results flagged for a closer look

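The response to CYC065 differed between the S62A and WT lines for 542 genes by the interaction term of the limma fit (adjusted p under 0.05), and the values below are the interaction on the log2 scale of the called genes named in the text. SERTA and histone genes with a higher response in S62A were SERTAD3 (1.14), SERTAD1 (0.94), CDCA4 (0.88) and HIST1H2BD (1.01). Secreted, surface, carrier and trafficking genes with a higher response were CLCF1 (1.04), CD274 (1.04), SLC25A29 (1.11), VPS18 (1.11) and TST (0.89). Homeobox, zinc finger, keratin and open reading frame genes with a higher response were HOXB2 (2.77), HOXA2 (0.92), ZNF576 (1.05), CCDC71 (0.91), C16orf93 (0.93), KRT19 (1.09) and KRT18 (0.51). Immediate early genes with a higher response were NR4A1 (0.82), SPRY2 (0.77), DUSP5 (0.75), DUSP4 (0.66), DUSP1 (0.48), IER5 (0.45), BTG1 (0.45), KLF10 (0.37) and KLF6 (0.25). Signaling and mesenchymal genes with a higher response were HES1 (0.87), ID1 (0.53), ID2 (0.38), AMOTL2 (0.52), ANKRD1 (0.51), CYR61 (0.29), SNAI2 (0.81) and TAGLN (0.65). Stress, growth and noncoding genes with a higher response were CHAC1 (1.06), DDIT4 (0.41), ATF4 (0.36), CCND1 (0.22), NELFA (0.64), EPB41L4A-AS1 (0.60) and GAS5 (0.49). Hydroxylase, kinase and vesicle genes with a lower response were EGLN2 (-1.95), DGKD (-0.79), DMXL2 (-0.84), DENND4B (-0.78), KCTD20 (-0.86) and NREP (-0.85). Adhesion, polarity, receptor and matrix genes with a lower response were VANGL1 (-0.98), PCDH18 (-0.95), EFNB2 (-0.92), DDR2 (-0.69), MET (-0.35), COL12A1 (-0.44) and COL3A1 (-0.33). Elongation and cell cycle genes with a lower response were AFF4 (-0.53), CDK12 (-0.52), ELL2 (-0.51), CDK6 (-0.64), CCNA2 (-0.41) and GINS1 (-0.74). Sterol, NF-kB, Hippo and remaining genes with a lower response were HMGCS1 (-0.83), SQLE (-0.48), INSIG1 (-0.45), ACACA (-0.42), BIRC3 (-1.10), NFKB1 (-0.31), LATS2 (-0.72), WWTR1 (-0.32), SLC7A11 (-0.38), KIAA0754 (-0.98), C9orf41 (-0.85), ZBED6 (-0.80) and ZBTB41 (-0.78).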

How the results depend on the processing

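With the column number (0 to 2) as a replicate block, added after seeing the data, 462 genes passed the interaction (202 higher and 260 lower, 445 shared) and 6 of the 72 called genes named lost their call, KLF10, CCND1, NFKB1, ZNF576, EGLN2 and EPB41L4A-AS1. The columns share only a number: deviations from group means correlated at -0.11 to 0.094 between same-numbered libraries of the 4 groups, and 3 of 12 libraries correlated best with their own number. The 542 calls of the interaction became 94 with only the 12 libraries of the comparison (56 higher and 38 lower, 87 shared), 152 at 1.5-fold, 247 with the trend on transcript length removed and 292 with the trend on gene span removed (32.5% higher against 44.8%), and they ranged from 215 to 897 when a library was left out. The count was 309 without WT_CYC065 library 1, 296 without S62A_DMSO library 0, 328 without S62A_DMSO library 1, 349 without S62A_CYC065 library 0 and 346 without S62A_CYC065 library 2, while other pseudocounts, filters, no centering and robust variance gave 363 to 588. Spike-in scaling gave 0 calls by limma (719 at an unadjusted p under 0.05) and moved the median interaction of all genes from 0.04 to 0.25. The median change of all genes with CYC065 on that scale was -1.57 in WT and -1.35 in S62A, a difference of 0.22 (0.07 to 0.34 when a library was left out). With spike-in scaling 8677 genes passed between the lines in DMSO, 4604 in CYC065 and 30 for S62A against the other mutants, and at 1.5-fold 626, 810 and 310 passed. The genes that rose with CYC065 were 61.5% of calls in WT and 61.3% in S62A, against 52.0% and 52.9% without centering and 0.814% and 1.06% with spike-in scaling. The interaction of MYCN was 0.085 with spike-in scaling, and ranged from -0.24 to -0.03 when a library was left out. Under spike-in scaling CDK2 was at 0.16 and SERTAD4 at 0.11. When a library was left out, MYC ranged from -0.043 to 0.383 and CDK2 from -0.0773 to 0.0204. None of these 4 genes passed in the original fit. The causes of these shifts were not tested. Counts of reads were not available here, so limits set by depth could be given only as relative depth.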
